A study of Mus musculus with 12 samples.

Results

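AP-1 is a family of dimeric transcription factors, and 8 of its genes were followed here in invariant natural killer T (NKT) cells, which see lipid antigens on CD1d. The genes were chosen by name: the Fos genes Fos, Fosb and Fosl2, the Jun genes Jun, Junb and Jund, and the related genes Atf3 and Batf. All 8 are listed in both tables, among 23284 genes each. RNA was sequenced from 12 libraries of sorted live CD45R- CD4- CD8- CD1d dimer+ TCRb+ cells of C57BL/6 mice, 3 libraries in each of 4 groups. The cKO groups hold NKT cells of double-negative (DN) origin from thymus and from liver. They come from mice in which a Cre under the E8III enhancer deletes a floxed Rag2 gene at the double-positive (DP) stage of thymocyte development. The YFP+ groups hold NKT cells of DP origin from mice in which the same Cre opens a loxP-STOP-loxP reporter at Rosa26. Both kinds of mouse carry the E8III-Cre transgene and only the cKO mice lose Rag2, so the origin of the cells and the mouse they grew in cannot be told apart. Age, sex and pooling of animals are not stated. Nothing says that replicates are separate animals, so the p-values measure the spread between these libraries, which may be technical.

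AP-1 proteins share a basic region that touches DNA and a leucine zipper that joins partners. Fos proteins need a Jun partner, while Jun proteins also pair among themselves. Fos, Fosb, Jun, Junb and Atf3 are immediate early genes, whose RNA rises within minutes of a receptor signal, a growth factor or a stress and then decays fast. In T cells the antigen receptor drives them through MAP kinases, and AP-1 binds beside NFAT at cytokine genes. Batf has no activation domain of its own, pairs with Jun proteins, and works with IRF4 in effector T cells. In bulk libraries such as these, fewer cells of a type and less RNA per cell cannot be told apart.

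The tables give FPKM, fragments scaled to transcript length and to the library's mapped total, so genes of a library share a unit. Genes of high GC content differed from other genes between libraries and between the tables (values below). Levels, shares and ratios set between genes are therefore descriptions. The thymus and liver tables were normalized separately, and a level in one is set beside a level in the other only as a description. The thymus table is named paired and the liver table single, so any effect of what these names mark cannot be told apart from tissue. For the 6 liver libraries the title and the description name opposite mice. Groups follow the titles, which the column headers of the tables also carry, and if the descriptions are right instead, every liver change below has the opposite sign. The targeted gene Rag2 was listed at 0 throughout liver cKO by title, and it reached 1.365, 0.985 and 1.075 FPKM in liver YFP+ by title. Rag2 did not exceed 0.015 FPKM in any thymus library. All 6 DP thymocyte markers tested in the liver, Rag2 not among them, also passed as lower in cKO by title. The Rag2 values therefore do not settle which label holds. Depth is unknown, since FPKM carry no read totals, and the FPKM of a library summed to between 187828 and 212688 in the thymus and between 450429 and 558042 in the liver. All 8 markers of T and NKT cells examined were above 1 FPKM in at least 1 library of every group and none was listed at 0 throughout a group. Their levels were not all alike. By the fits below, 3 passed as lower and 0 as higher in thymus cKO, against 13.1% and 2.64% of all tested genes. In liver cKO 2 passed as lower and 2 as higher, against 19.7% and 7.49%. With median-ratio scaling 2 were lower in the thymus, and 0 lower and 2 higher in the liver. Over all tested genes that scaling gave 365 higher and 421 lower of 9097 in the thymus. In the liver it gave 1002 higher and 1061 lower of 9591. The thymus library of cKO replicate 1 stood apart from its group, as the lowest, for 6 of the 8 members. Their changes and the list counts are given with and without it. Leaving out the lowest library raises the group mean, so higher counts without it are no support by themselves. Thymus YFP+ replicate 3 deviated from the mean of its group's other libraries by -1.51 for Fos and -0.58 for Junb (log2 scale). For cKO replicate 1 these values were -0.94 and -0.53. The lists were not refitted without YFP+ replicate 3.

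The RNA starts of 5 of the 8 genes hold, within the 150 bases upstream, the 5 letters TGACG on either strand, the core that AP-1, ATF and CREB proteins can bind. The sequences are from RefSeq (GRCm38.p6, whereas the FPKM are on mm9), all 8 genes matched by symbol, and each is printed 5′ to 3′ in the direction of the gene with TGACG, or CGTCA where it lies on the opposite strand, in capitals. Fos, Fosb, Junb and Atf3 are shown because they hold TGACG and were higher in every thymus cKO library than in any thymus YFP+ library. Jun had the same pattern of libraries without TGACG in this window, and Batf holds it and had overlapping groups.
Fos, chr12:85473740-85473889, plus strand: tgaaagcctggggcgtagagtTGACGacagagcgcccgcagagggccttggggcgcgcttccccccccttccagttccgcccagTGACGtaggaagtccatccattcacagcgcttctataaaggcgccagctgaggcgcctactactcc
Fosb, chr7:19310046-19310195, minus strand: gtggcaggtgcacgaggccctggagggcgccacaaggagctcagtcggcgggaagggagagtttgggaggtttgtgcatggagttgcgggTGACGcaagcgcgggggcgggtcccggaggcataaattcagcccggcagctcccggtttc
Junb, chr8:84978749-84978898, minus strand: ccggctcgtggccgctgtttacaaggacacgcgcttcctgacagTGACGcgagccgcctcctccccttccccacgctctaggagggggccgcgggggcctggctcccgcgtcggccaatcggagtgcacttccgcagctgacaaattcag
Atf3, chr1:191183334-191183483, minus strand: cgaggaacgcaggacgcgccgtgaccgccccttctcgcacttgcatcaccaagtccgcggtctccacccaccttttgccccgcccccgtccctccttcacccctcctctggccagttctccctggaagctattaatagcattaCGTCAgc
Jun, chr4:95052223-95052372, minus strand: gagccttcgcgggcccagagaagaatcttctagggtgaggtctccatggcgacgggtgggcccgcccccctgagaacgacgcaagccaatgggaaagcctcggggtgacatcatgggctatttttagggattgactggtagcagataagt
Batf, chr12:85686570-85686719, plus strand: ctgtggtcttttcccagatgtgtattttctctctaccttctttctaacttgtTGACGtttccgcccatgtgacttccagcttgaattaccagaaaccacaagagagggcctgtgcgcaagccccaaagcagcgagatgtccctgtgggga
TGACG was present in 13.3% of all 32851 promoter entries in the same window. The 8-letter element TGACGTCA, found in 1.36% of promoter entries, and the 7-letter AP-1 element TGACTCA, found in 2.84%, occurred in none of the 8. Jun held GAANNTTC, a pair of inverted heat shock units (3.95% of promoter entries), and Fos held TATAAA (7.57%). The CArG box bound by serum response factor (0.916%) was in none of these windows. Only these patterns were searched, so near matches, such as tgacatca in the Jun window, and stretches further upstream were not counted. A match is a description of letters and not a site.

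In the thymus, 6 of the 8 genes were higher in every cKO library than in any YFP+ library, and Batf and Fosl2 were not. The fitted differences were largest for Fosb, Fos and Atf3 and smallest for Jund among the 6. Junb was the most abundant member in both groups. Of the 7 members tested, Fos, Fosb, Jun and Junb passed as higher (limma on log2(FPKM + 1), Benjamini-Hochberg adjusted p under 0.05 over 9097 genes), against 2.64% of all tested genes passing as higher. Groups did not overlap in the higher direction for 5.34% of tested genes. Fosb and Atf3 reached the mean of 1 FPKM needed for testing only through the cKO group, and Fosl2 did not reach it, so these counts are no support by themselves. Each change is a log2 difference of FPKM + 1, cKO minus YFP+, from which the change of the median gene was taken away (-0.16 for thymus, -0.11 for liver). The p-values belong to the unshifted fit.

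Fos, the founding Fos protein gene, was at 36.0, 70.7 and 69.7 FPKM in cKO replicates 1 to 3 and at 18.1, 22.5 and 6.46 FPKM in the YFP+ libraries. The groups did not overlap, cKO replicate 1 lay closest to YFP+, and YFP+ replicate 3 was the lowest. The relative log2 change was 2.1 (SE 0.42, adjusted p = 0.0223 with limma). The Fos call was lost without cKO replicate 2 (limma adjusted p = 0.0657), cKO replicate 3 (0.0766) or YFP+ replicate 1 (0.0526), and with no filter on low values (0.0794). Without cKO replicate 1 the Fos change was 2.44 (limma adjusted p = 0.00680). Fosb, a Fos relative with a strong activation domain, was at 3.72, 13.7 and 12.6 FPKM in cKO and at 0.817, 1.11 and 0.428 FPKM in YFP+. The 2 higher cKO libraries were again replicates 2 and 3. Fosb rose by 2.64 (SE 0.39, limma adjusted p = 0.00705) and passed in all 14 alternatives (adjusted p = 3.06e-05 to 0.0449), with a change of 3.19 without cKO replicate 1. Fosl2, which encodes Fra-2, stayed between 0.466 and 0.620 FPKM in the 6 thymus libraries, with overlapping groups.

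Jun, the gene of c-Jun, was at 28.7, 80.5 and 79.3 FPKM in cKO and at 20.95, 27.1 and 12.002 FPKM in YFP+. Replicate 1 of cKO was only just above the highest YFP+ library. The relative change was 1.70 (SE 0.41, limma adjusted p = 0.0418). Jun passed without cKO replicate 1 (adjusted p = 0.00176) and in no other fit that left out 1 library. Its limma adjusted p was 0.114 or 0.122 when cKO replicate 2 or 3 was omitted, and 0.0933, 0.0594 or 0.145 when YFP+ replicate 1, 2 or 3 was. It also missed the threshold with median-ratio scaling of the libraries (0.0547), quantile normalization (0.0606) and no filter (0.124). Junb, a Jun protein that can restrain c-Jun, was at 391, 548 and 577 FPKM in cKO and at 317, 366 and 227 FPKM in YFP+. The lowest cKO library lay just above the highest YFP+ library. Junb rose by 0.91 (SE 0.20, limma adjusted p = 0.0405), and the call was lost without cKO replicate 2 (0.108), cKO replicate 3 (0.120), YFP+ replicate 1 (0.0886) or YFP+ replicate 3 (0.121), with quantile normalization (0.0532) and with no filter (0.123). Without cKO replicate 1 the Junb change was 1.11 (limma adjusted p = 0.00807). Jund, the Jun protein gene with the steadiest RNA in resting cells, was at 99.4, 137 and 137 FPKM in cKO and at 93.9, 96.1 and 83.6 FPKM in YFP+. Its groups did not overlap, and the relative difference of 0.60 (SE 0.13) missed the threshold (limma adjusted p = 0.0557). It passed without cKO replicate 1 (0.78, adjusted p = 0.00224), with median-ratio scaling (0.0465), with array weights (0.00781) and with a minimum mean of 5 FPKM (0.0449).

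Atf3, a stress-induced factor that pairs with Jun proteins, was at 0.620, 6.52 and 5.16 FPKM in cKO. In YFP+ it was at 0.231 and 0.574 FPKM in replicates 1 and 2 and listed at 0 in replicate 3. Only cKO replicates 2 and 3 stood clear of YFP+. The relative difference was 1.92 (SE 0.51, limma adjusted p = 0.0517), and it passed without cKO replicate 1, where it was 2.64 (adjusted p = 1.72e-04), with array weights (0.00502) and with a pseudocount of 0.1 (0.0458) or 0.5 (0.0473). Batf was at 9.67, 7.34 and 8.77 FPKM in cKO and at 8.37, 9.58 and 12.7 FPKM in YFP+, with overlapping groups (relative change -0.051, SE 0.15, limma adjusted p = 0.320). The thymus count of 4 passing members was 6 of 7 without cKO replicate 1, and it was 1 when cKO replicate 2, cKO replicate 3 or YFP+ replicate 1 was omitted. It was 2 without YFP+ replicate 3 or with quantile normalization, and 1 with no filter.

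**Figure D1:**
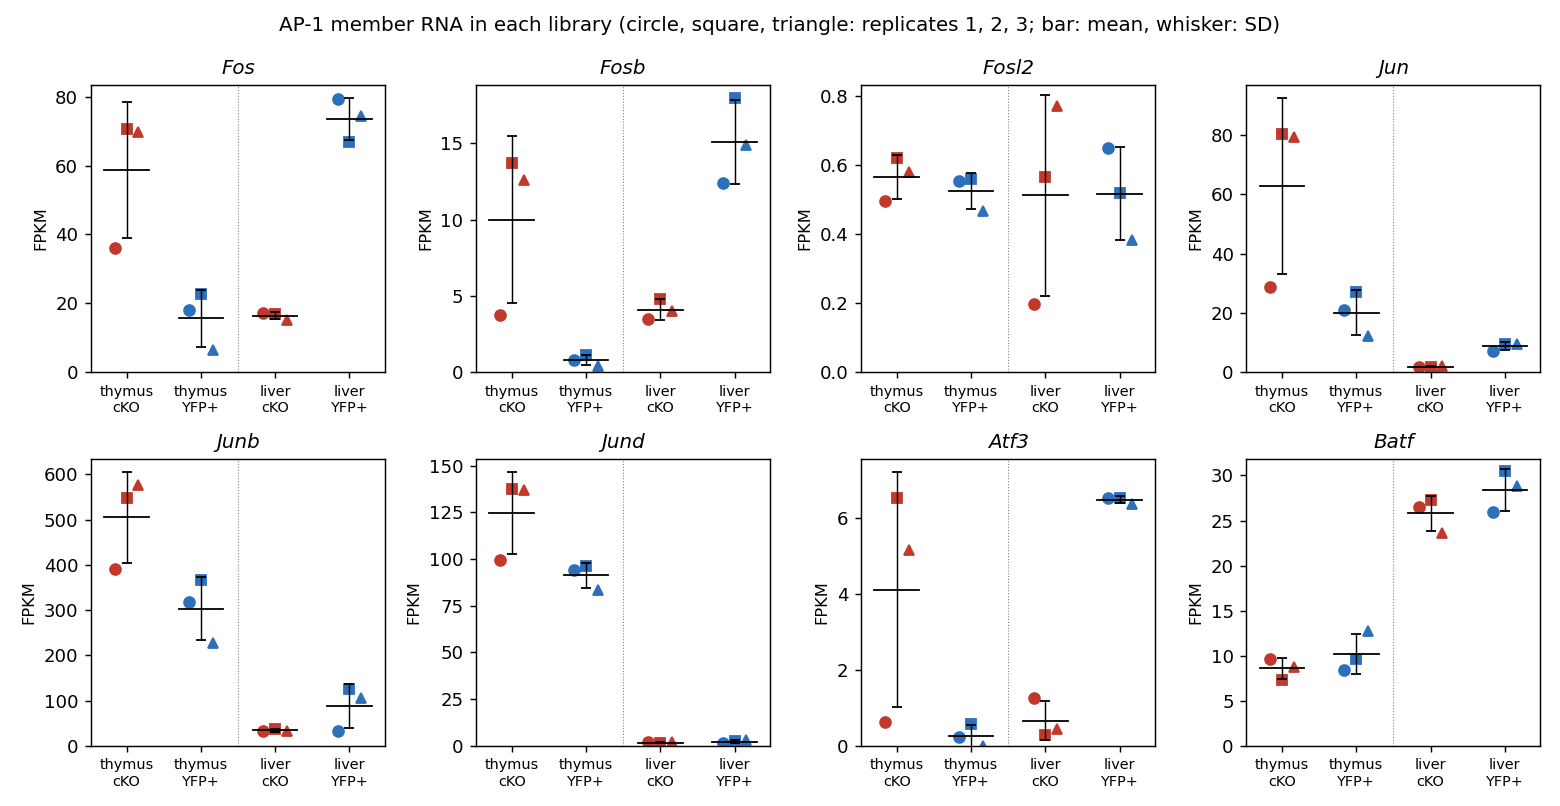
FPKM of each AP-1 member in the 12 libraries, by group (x axis), with a linear FPKM axis of its own for each gene. Points are libraries (circle, square and triangle for replicates 1, 2 and 3), horizontal bars are group means and whiskers are SDs of 3 libraries. In the thymus cKO replicate 1 (circle) lies below the other cKO libraries for Fos, Fosb, Jun, Junb, Jund and Atf3, and in the liver YFP+ lies above cKO for Fos, Fosb, Jun and Atf3.

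In the liver the direction was the opposite by the titles: Fos, Fosb, Jun and Atf3 were lower in every cKO library than in any YFP+ library. Of 7 members tested, these 4 passed as lower and 0 as higher, against 19.7% and 7.49% of 9591 tested genes. For 29.6% of tested genes the groups did not overlap in that direction. Atf3 reached the tested level only through the YFP+ group. No single library decided the liver call of any of these 4 genes.

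In liver cKO, Fos measured 17.1, 16.9 and 15.1 FPKM, and in liver YFP+ 79.4, 67.0 and 74.4 FPKM. Each group was narrow and the groups lay far apart. Fos fell by 1.99 on the relative log2 scale (SE 0.096, limma adjusted p = 7.44e-06). Fosb was at 3.47, 4.82 and 3.99 FPKM in cKO and at 12.4, 18.0 and 14.9 FPKM in YFP+, a relative change of -1.54 (SE 0.16, limma adjusted p = 3.66e-04). Fosl2 lay between 0.198 and 0.771 FPKM in all 6 liver libraries with overlapping groups.

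For Jun the liver cKO libraries gave 1.86, 1.61 and 1.89 FPKM and the liver YFP+ libraries 7.17, 9.53 and 9.46 FPKM, without overlap (relative change -1.69, SE 0.14, limma adjusted p = 1.53e-04). Atf3 was at 1.25, 0.283 and 0.454 FPKM in cKO and at 6.53, 6.51 and 6.36 FPKM in YFP+ (relative change -2.10, SE 0.21, limma adjusted p = 3.54e-04). Over their alternatives Fos, Fosb, Jun and Atf3 kept adjusted p between 1.68e-06 and 0.00472 wherever they were tested.

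Junb did not follow Fos in every liver library. It was at 32.4, 37.1 and 32.0 FPKM in cKO and at 32.8, 126 and 106 FPKM in YFP+. YFP+ replicate 1 lay among the cKO libraries for Junb, although it was the highest liver library for Fos. Junb did not pass (relative change -1.04, SE 0.42, limma adjusted p = 0.0775). Without YFP+ replicate 1 the relative change was -1.61 and passed (limma adjusted p = 8.40e-05), and it also passed with array weights (0.00320). Jund was low in the liver, at 1.77, 1.36 and 1.76 FPKM in cKO and 1.43, 2.29 and 2.99 FPKM in YFP+, and YFP+ replicate 1 lay within the cKO range here too (relative change -0.17, SE 0.19, limma adjusted p = 0.329). Beside this, transcripts in the tenth of tested genes with the highest GC content were lower in YFP+ replicate 1 than in the other 2 YFP+ libraries by a median of -0.25 on the log2 scale, against -0.066 over all genes with a GC value. The corresponding deviations were -1.78 for Junb, -0.58 for Jund and 0.17 for Fos, and the part of GC content in them was not tested. Batf was at 26.5, 27.3 and 23.6 FPKM in cKO and at 25.9, 30.4 and 28.8 FPKM in YFP+, with overlapping groups (relative change -0.025, SE 0.099, limma adjusted p = 0.350).

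**Figure D2:**
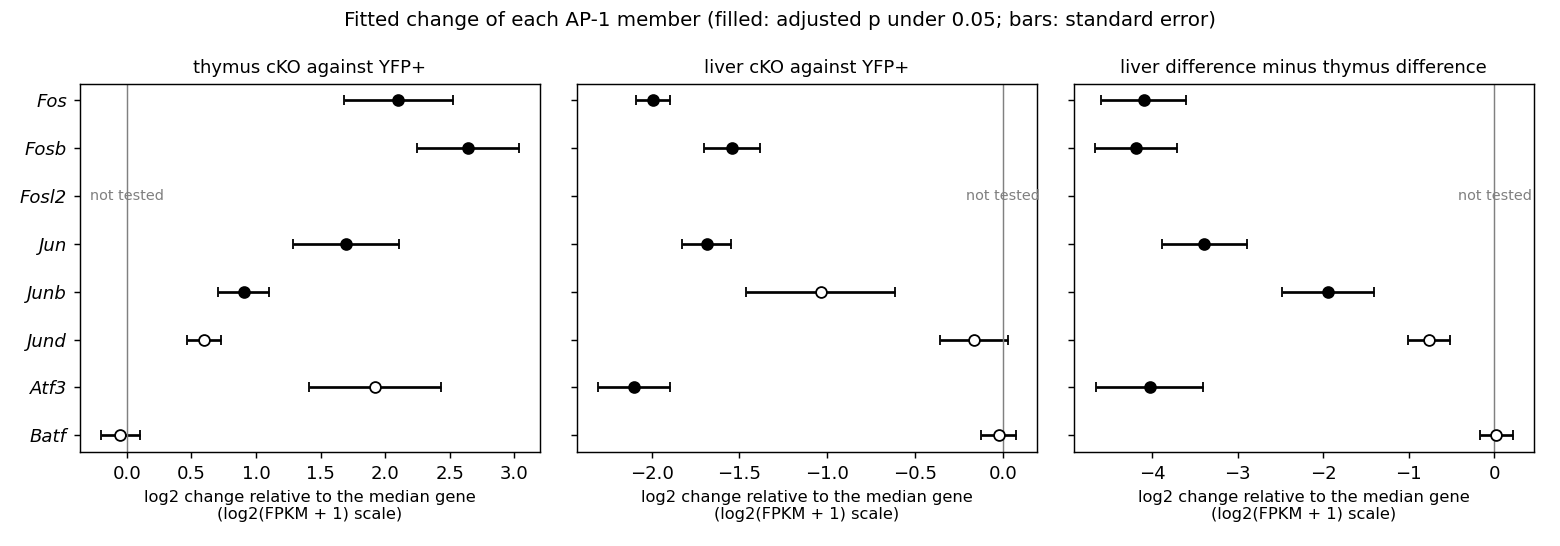
Relative log2 change of each AP-1 member (x axis, with a range of its own in each panel) in 3 panels: cKO minus YFP+ within thymus, cKO minus YFP+ within liver, and the liver difference minus the thymus difference. Bars are standard errors and filled points passed at an adjusted p of 0.05. Fos, Fosb and Jun are filled in all 3 panels, to the right of 0 in the thymus and to the left in the other 2, and Batf lies beside 0 in each.

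The difference between these differences was tested on all 12 libraries. A scale offset between the tables cancels on the log scale for genes far above the pseudocount of 1, and only in part for low ones such as Jun and Atf3 in the liver. With a pseudocount of 0.1 the values were -4.26 for Fos, -5.32 for Fosb, -3.87 for Jun and -6.77 for Atf3, and each passed. Of 7 members tested, 5 differed between tissues with the liver difference the lower and 0 with it the higher, against 5.91% and 9.14% of 9739 tested genes. The liver difference minus the thymus difference was -4.10 for Fos (SE 0.50, limma adjusted p = 3.67e-04), -4.19 for Fosb (SE 0.48, adjusted p = 2.48e-04) and -3.39 for Jun (SE 0.49, adjusted p = 0.00115). For Atf3 it was -4.03 (SE 0.63, limma adjusted p = 0.00167). These 4 passed in every alternative in which they were tested, apart from the swap of liver labels given next. For Junb it was -1.95 (SE 0.54, limma adjusted p = 0.0345). The Junb call was lost without thymus cKO replicate 2 (0.0715) or 3 (0.0770), without thymus YFP+ replicate 1 (0.0630) or 3 (0.0822), and without liver cKO replicates 1, 2 and 3 (0.0660, 0.0561 and 0.0676). It was also lost without liver YFP+ replicate 2 (0.0743) or 3 (0.0654), and with no filter (0.0937). Jund missed the threshold (-0.77, SE 0.24, limma adjusted p = 0.0713) and passed without thymus cKO replicate 1 (0.0275) or liver YFP+ replicate 1 (0.0127), with median-ratio scaling (0.0460) and with array weights (0.00374). Batf was at 0.021 (SE 0.20, limma adjusted p = 0.821).

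The result of this test turns on which liver label holds. With the liver groups taken from the description field, an alternative chosen after seeing the data, 0 of 7 members passed with limma and 0 had an unadjusted p under 0.05, while 34.8% of the 9739 tested genes passed and 45.1% had such a p. The difference between tissues was then -0.091 for Fos (SE 0.50), -1.08 for Fosb (SE 0.48), 0.0051 for Jun (SE 0.49) and 0.19 for Atf3 (SE 0.63). By the titles the AP-1 change runs against that of the thymus, and by the descriptions it runs the same way. A p that misses the threshold does not show that the changes are alike.

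The make-up of AP-1 RNA is described here with no test. In the thymus Junb held 63.4 to 69.9% of the summed FPKM of the 8 members in every library, and Jund 15.4 to 24.4%. The Jun genes together exceeded the Fos genes by 12.9, 9.02 and 9.58 times in thymus cKO and by 22.2, 20.2 and 43.9 times in thymus YFP+, with no overlap, so the excess of Jun over Fos RNA was smaller in cKO. In the liver Batf held 29.6 to 31.4% of the sum in cKO and 11.7 to 15.6% in YFP+, while its own level overlapped between the groups. Fos held 18.8 to 20.2% in liver cKO and 25.8 to 47.7% in liver YFP+. The Jun to Fos ratio in the liver was 1.74, 1.796 and 1.795 in cKO and 0.448, 1.61 and 1.32 in YFP+, also without overlap. YFP+ replicate 1, the library with the low Junb, gave the lowest ratio and the highest share of Fos.

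**Figure D3:**
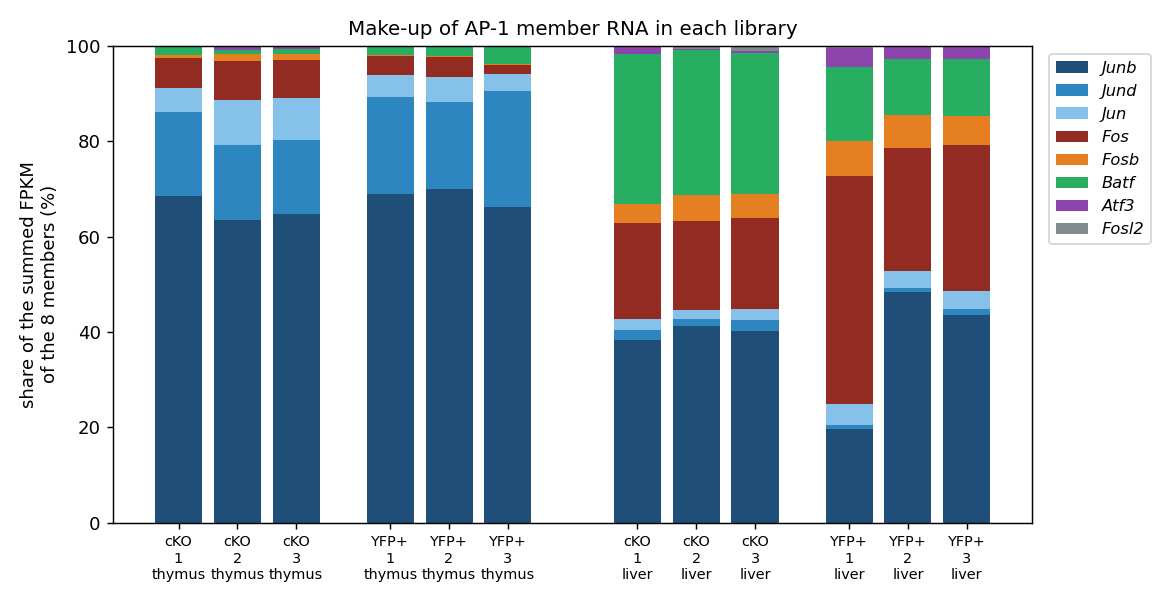
Share of each AP-1 member in the summed FPKM of the 8 members (y axis, percent) in each of the 12 libraries (x axis, with replicate number). Junb and Jund fill most of each thymus bar, whereas Fos and Batf take a large part of each liver bar, and liver YFP+ replicate 1 differs from its group in the Junb and Fos shares.

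The order of levels by mean was Junb, Jund, Jun, Fos in both thymus groups, and the ranges of Jun and Fos overlapped in each. Below them came Fosb and Batf in cKO, with overlapping ranges, followed by Atf3 and Fosl2. In thymus YFP+ Batf was ahead of Fosb, Fosl2 and Atf3, and the ranges of these last 3 overlapped with their neighbours. In liver cKO the order was Junb, Batf, Fos, Fosb, Jun, Jund, Atf3, Fosl2, where only Jun with Jund and Atf3 with Fosl2 overlapped. In liver YFP+ Junb and Fos overlapped at the top and the rest stood apart in the order Batf, Fosb, Jun, Atf3, Jund, Fosl2. Across the separately normalized tables, Jund lay at 83.6 to 137 FPKM in the thymus and at 1.36 to 2.99 FPKM in the liver, and Batf at 7.34 to 12.7 and 23.6 to 30.4 FPKM.

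Most calls among other immediate early genes were higher in thymus cKO and lower in liver cKO. In the thymus 11 of 24 tested genes of this list passed as higher and 2 as lower in cKO (list median 0.72 against 0 for all tested genes by construction), against 2.64% and 13.1% of all tested genes, and with median-ratio scaling 13 and 2. With that scaling 365 of all 9097 tested genes passed as higher and 421 as lower in the thymus. In the liver 1002 of 9591 passed as higher and 1061 as lower with it. List counts with median-ratio scaling, here and below, stand against these counts and not against the unscaled shares. Without cKO replicate 1, an alternative for the lists chosen after seeing the data, 16 passed as higher and 2 as lower, against 3.88% and 22.6% of all tested genes. Klf4, a zinc finger factor, was at 4.52 ± 1.38 FPKM in cKO and 0.972 ± 0.557 FPKM in YFP+. Pairs of values from here on give cKO first and then YFP+, each as mean ± SD of n = 3. Ier3, a stress-response gene, was at 3.72 ± 0.993 against 1.03 ± 0.162 FPKM, and Ppp1r15a (GADD34), which restarts translation after stress, at 50.7 ± 7.72 against 23.7 ± 7.16 FPKM. In the liver 2 of 24 passed as higher and 13 as lower (median -0.35), against 7.49% and 19.7% of all tested genes, and 2 and 10 with median-ratio scaling. Dusp1, a phosphatase that switches off MAP kinases, was at 30.2 ± 1.98 against 130 ± 11.1 FPKM in the liver (limma adjusted p = 6.54e-06). Tnfaip3 (A20), an inhibitor of NF-kB signalling, was at 5.09 ± 0.347 against 22.9 ± 1.33 FPKM, and Nr4a1, induced by the antigen receptor, at 3.33 ± 1.05 against 15.6 ± 1.31 FPKM. In the thymus Dusp1, at 270, 620 and 639 FPKM in cKO and 288, 350 and 200 FPKM in YFP+, was lowest within cKO in replicate 1, as Fos was, and did not pass (limma adjusted p = 0.121). Myc went against the list in the liver, at 21.5 ± 1.31 against 10.0 ± 1.39 FPKM (limma adjusted p = 7.93e-04), and is named after its values were seen.

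Heat shock genes, which cells switch on under stress, included the most strongly raised genes of all lists in the thymus. There 6 of 13 tested passed as higher in cKO and 0 as lower, against 2.64% and 13.1% of all tested genes. Without cKO replicate 1, which had the lowest Hspa1a of the cKO group, 12 passed as higher and 0 as lower, against 3.88% and 22.6%. That library was left out of the lists after its values were seen, so the larger count is no support by itself. Hspa1a, an inducible HSP70 gene that shares reads with its near-identical copy Hspa1b, was at 90.7, 743 and 751 FPKM in cKO and between 4.79 and 6.18 FPKM in YFP+. Its lowest cKO library was replicate 1, the one with the lowest Fos, Fosb, Jun, Junb, Jund and Atf3 of the cKO group. Hspa1b passed with it (634 ± 457 against 6.78 ± 0.680 FPKM), as did Hspa1l (48.4 ± 34.8 against 0.681 ± 0.204 FPKM). In the liver Hspa1a did not exceed 1.56 FPKM in any library and its groups overlapped, while Fos was at 67.0 FPKM or more in YFP+. There 1 of 13 heat shock genes passed as higher and 5 as lower (1 and 3 with median-ratio scaling), against 7.49% and 19.7% of all tested genes. The HSP70 cofactor gene Dnajb1 was at 24.2 ± 1.77 against 51.0 ± 7.55 FPKM in the liver, and Dnajb4 at 0.664 ± 0.125 against 1.66 ± 0.301, whereas Hsph1, an HSP110 gene, was higher in cKO at 23.2 ± 1.43 against 11.7 ± 2.57 FPKM. The part of a stress response during tissue handling in the AP-1 differences was not tested.

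**Figure D4:**
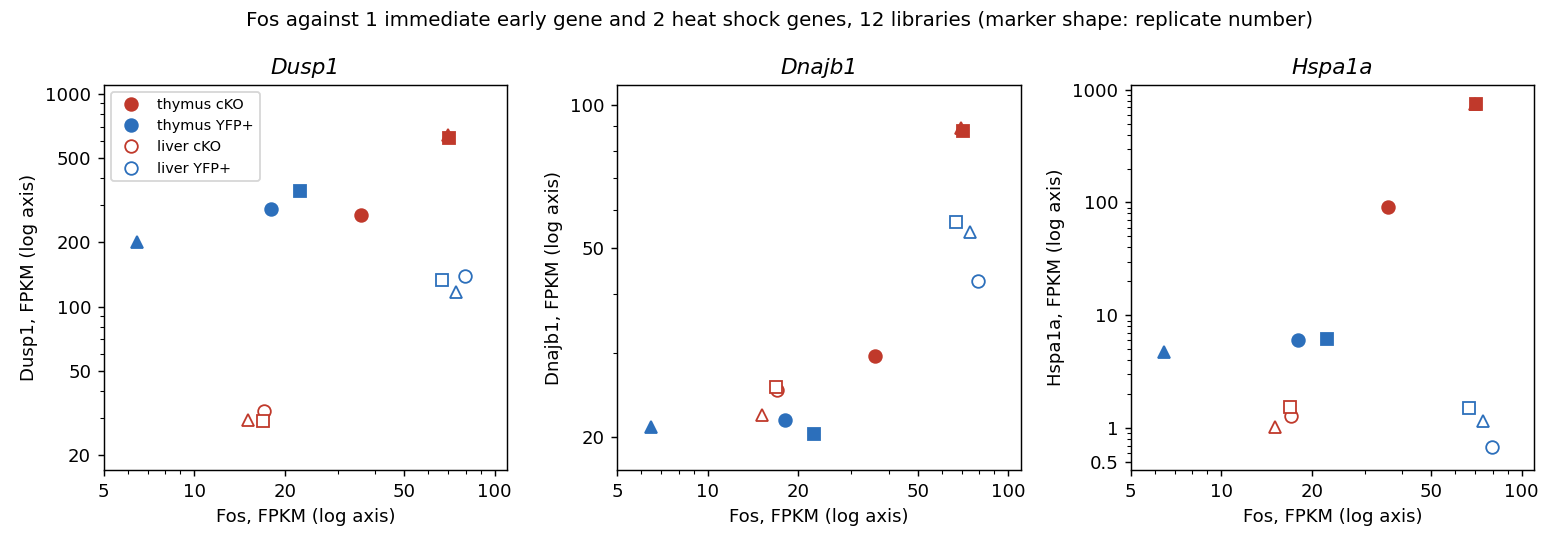
Fos (x axis) against Dusp1, Dnajb1 and Hspa1a (y axes), all in FPKM on log axes, for 12 libraries. Filled points are thymus and open points liver, red is cKO and blue YFP+, and the marker shape gives the replicate. Thymus cKO replicates 2 and 3 are high for Fos and for all 3 genes, whereas the liver YFP+ libraries are high for Fos and stay below 1.56 FPKM for Hspa1a.

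Genes known as targets of AP-1 or of NFAT with AP-1 in T cells moved both ways. In the thymus 4 of 11 tested passed as higher and 3 as lower (5 and 2 with median-ratio scaling, 5 and 3 without cKO replicate 1), against 2.64% and 13.1% of all tested genes. Without cKO replicate 1 the shares of all tested genes were 3.88% and 22.6%. Ifng, the type 1 cytokine gene, was at 58.7 ± 15.9 against 18.2 ± 6.44 FPKM. Il4, the type 2 cytokine gene, was lower in cKO at 0.673 ± 0.273 against 4.22 ± 0.211 FPKM, and so was the co-stimulatory receptor gene Icos at 8.72 ± 1.40 against 29.0 ± 3.83 FPKM. In the liver 1 of 14 passed as higher and 7 as lower (1 and 6 with median-ratio scaling), against 7.49% and 19.7%. Il2, the T cell growth factor gene, was the higher gene, at 7.05 ± 1.28 against 1.59 ± 0.825 FPKM. Gadd45b, a stress sensor, was at 2.36 ± 0.737 against 8.35 ± 0.5004 FPKM and Cd69, an early activation marker, at 59.9 ± 6.17 against 124 ± 8.73 FPKM. Il2 also passed as higher in the cKO thymus, at 2.56 ± 0.400 against 0.851 ± 0.0777 FPKM (limma adjusted p = 0.00211), and its difference between tissues did not pass (adjusted p = 0.0903).

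Among upstream and partner genes the thymus calls lay on the lower side, where most calls over all tested genes lay (13.1% lower, 2.64% higher). Of 24 kinases and factors upstream of AP-1 tested in the thymus, 7 passed as lower in cKO and 0 as higher, and with median-ratio scaling 2 as lower. Without cKO replicate 1 the counts were again 7 and 0, while 22.6% of all tested genes then passed as lower and 3.88% as higher. Rasgrp1, which links the antigen receptor to Ras, was at 18.7 ± 1.65 against 28.8 ± 2.99 FPKM. Of the ETS factors that join serum response factor, Elk3 was lower at 8.71 ± 0.877 against 13.0 ± 0.440 FPKM, Elk4 did not pass at 3.70 ± 0.193 against 3.46 ± 0.314 FPKM, and Elk1 was lower at 2.15 ± 0.268 against 3.54 ± 0.709 FPKM. Elk1 missed the threshold with median-ratio scaling (limma adjusted p = 0.114). In the liver 2 of 22 passed as higher and 0 as lower, against 7.49% and 19.7% of all tested genes: Elk4 at 2.26 ± 0.333 against 1.09 ± 0.195 FPKM and the kinase gene Rps6ka1 at 37.5 ± 1.15 against 26.98 ± 0.528 FPKM. Of 10 partner genes in the thymus 4 passed as lower, also without cKO replicate 1 (against 22.6% of all tested genes there), and 1 with median-ratio scaling. Irf8 was at 1.40 ± 0.268 against 2.91 ± 0.456 FPKM, Ets1 at 32.8 ± 2.31 against 44.5 ± 3.75 and Nfatc1 at 3.76 ± 0.399 against 5.18 ± 0.10006 FPKM, and the calls of Ets1 (0.0921) and Nfatc1 (0.117) were lost with that scaling. In the liver 1 of 9 partners passed, the signal transducer gene Smad3, higher at 18.8 ± 1.62 against 14.2 ± 0.932 FPKM.

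Of the other basic leucine zipper genes, 15 were tested in the thymus, 1 passing as higher and 2 as lower (2 and 2 with median-ratio scaling, 2 and 3 without cKO replicate 1). The share passing as lower was near that of all tested genes (13.1%), also without cKO replicate 1 (20% against 22.6%). Nfil3, a factor of innate lymphocyte development, was at 8.11 ± 2.72 against 4.01 ± 0.476 FPKM. Maf, a factor of IL-4 and IL-17 producing cells, was lower at 4.80 ± 0.976 against 9.57 ± 0.690 FPKM, and Atf6, a sensor of endoplasmic reticulum stress, at 3.34 ± 0.0343 against 5.31 ± 0.367 FPKM. In the liver 3 of 14 passed as lower, near the 19.7% of all tested genes, and 0 as higher. These were Atf4 at 48.5 ± 4.86 against 82.6 ± 7.58 FPKM, Ddit3 (CHOP) at 17.5 ± 3.91 against 27.7 ± 2.26 FPKM, and Nfil3 at 1.70 ± 0.239 against 2.77 ± 0.455 FPKM. With median-ratio scaling only Atf4 passed in the liver, Ddit3 being at 0.0501 and Nfil3 at 0.0921 (limma adjusted p).

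The genes whose values ran closest to Fos over the 6 thymus libraries were Rhob (Pearson r = 0.997 of log2(FPKM + 1)), Mup8 (0.993), Ppp1r15a (0.993), Mup12 (0.990) and Ifng (0.987). Rhob is an immediate early GTPase gene, and Mup8 and Mup12 belong to a family of near-identical genes that share reads. In the liver they were Srsf5 and Itm2a (0.999 each), Gm14288 and Gm14440 (0.998 each, near-equal in every library, so that their reads cannot be told apart) and Xrcc4 (0.998). The closest to Batf were Ring1 (0.993), Sbds (0.991), Dhx15 (0.990), Tmed2 (0.990) and Chmp3 (0.987) in the thymus. In the liver they were Dlat (0.989), Wbscr22 (0.987), Ptger4 (0.980), 4930528A17Rik (0.975) and Rmi1 (0.975). The 6 libraries of a tissue form 2 groups, so a gene that differs between the groups as Fos does scores high, and the values describe likeness only.

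Several lists of markers of other cells were lower in liver cKO, as Fos was, and others were not. The summed FPKM of 9 DP thymocyte markers ranged from 25.3 to 26.3 in liver cKO and from 82.3 to 92.2 in liver YFP+, and Rag2 was the 1 of them at 0 throughout cKO. The 7 erythroid markers summed to 9.82 to 15.0 against 641 to 742 FPKM, with Slc4a1 at 0 throughout cKO. Nearly all of this sum was globin RNA, and Hba-a1 was near-equal to Hba-a2, and Hbb-b1 to Hbb-b2, in every library. The 10 myeloid markers found in the tables summed to 21.5 to 23.5 against 66.3 to 88.8 FPKM, mostly Lyz1 and Lyz2. Of 6 myeloid markers tested, 4 passed as lower in cKO and 2 did not pass. The 6 B cell markers summed to 1.97 to 3.36 against 10.5 to 11.9 FPKM, with Pax5 at 0 throughout cKO. The 2 gamma-delta T cell markers found in the tables went the other way, 14.7 to 18.0 against 1.97 to 3.46 FPKM. The 7 hepatocyte markers summed to 12.6 to 16.7 against 37.6 to 43.1 FPKM, nearly all of it Trf (12.2 ± 1.999 against 38.4 ± 2.33 FPKM), with Alb, Apoa1, Ttr and Fgb at 0 throughout YFP+. Serpina1a, the other hepatocyte marker tested in the liver, was at 1.83 ± 0.296 against 1.54 ± 0.257 FPKM and did not pass. The 7 endothelial and stromal markers summed to 1.44 to 2.37 against 3.33 to 4.32 FPKM, and those of thymic epithelium stayed at or below 0.468 FPKM. The part of these cells in the liver AP-1 difference was not tested.

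In the thymus the DP markers summed to 6.90 to 8.59 FPKM in cKO and 17.4 to 22.1 FPKM in YFP+, the opposite direction to Fos. The erythroid markers summed to 108, 0.179 and 14.3 FPKM in cKO replicates 1 to 3 and to at most 0.860 FPKM in YFP+, so they were highest in the cKO library with the least Fos and near 0 in the one with the most. Hepatocyte markers, mostly Trf, summed to 4.37 to 6.28 against 26.3 to 30.4 FPKM. The B cell, myeloid, endothelial and thymic epithelial lists were each at or below 4.37 FPKM in every thymus library, and the gamma-delta list at 4.88 to 7.68 FPKM with overlapping groups. The part of these cells in the thymus AP-1 difference was not tested.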

How the data were processed

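The 12 libraries were made from low-input cDNA with either of 2 library kits, per the labels' protocols, which do not say which library had which. Thymocytes were depleted of CD4+ and CD8+ cells before sorting. The authors deposited FPKM, 1 table per tissue, named paired for thymus and single for liver. They were made with TopHat2 (2.8.0 as given) and Cufflinks 2.1.1 on mm9, per the submitters' processing notes. Whether strand was used is not stated. FPKM of a gene depend on all other RNA of the library and on fragment selection, and they carry no depth.

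Groups follow the titles, and 0 columns were left unmapped. Genes averaging 1 FPKM or more in the libraries of a fit were tested with limma-trend (limma 3.58.1, R 4.3.3) on log2(FPKM + 1), which understates changes of low genes, with Benjamini-Hochberg adjustment at 0.05 over all tested genes. The scripts were tested on simulated data. The members and the gene lists were chosen with earlier results of these data known. The text names all 8 members, up to 3 genes of each list per tissue that passed without overlap of the groups, by size of change, and the 5 genes most correlated with Fos and with Batf. Alternatives were other pseudocounts (0.1, 0.5), filters (none, 5 FPKM), median-ratio and quantile scaling, a replicate block, array weights and leaving out each library. Promoter sequences came from RefSeq. The value of 1 marker gene is not reported here.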

Additional observations from a re-analysis of the deposited data

Results flagged for a closer look

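The cKO against YFP+ difference was unlike in liver and thymus by the interaction term for 5 members, with groups by the titles. The liver difference minus the thymus difference was -4.10 for Fos, -4.19 for Fosb, -3.39 for Jun, -4.03 for Atf3 and -1.95 for Junb on the relative log2 scale. With the liver groups taken from the description field, 0 of the 5 passed (limma adjusted p = 0.207 to 0.820), so these values depend on a label that the sources do not settle. Groups of 3 libraries were not put to a test for single outlying values.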

How the results depend on the processing

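The thymus count of 1429 genes (240 higher, 1189 lower) was 801 with no filter on low values, 786 with median-ratio scaling (365 higher, 421 lower), 826 with quantile normalization (396 higher, 430 lower) and 2798 with array weights, and 472 to 2408 with 1 library left out. The thymus member count of 4 was 1 with no filter and 2 with quantile normalization, and 1 to 6 with 1 library left out. The replicate numbers do not pair the libraries: deviations of same-numbered libraries correlated at -0.063 to 0.066, and with the replicate number as a block the thymus counts were 787 genes and 2 members, Jun (limma adjusted p = 0.0544) and Junb (0.0593) missing the threshold, while liver Junb passed (0.0471). The liver count of 2607 genes (718 higher, 1889 lower) was 3940 with array weights and 1539 to 2640 with 1 library left out, and 2063 (1002 higher, 1061 lower) with median-ratio scaling. The count of 1466 genes differing between tissues was 2634 with array weights, and 3390 genes and 0 members with liver groups by description. Batf changed sign in the thymus with array weights (0.017) and over fits without 1 library (-0.15 to 0.077), in the liver with a minimum of 5 FPKM (0.037), quantile normalization (0.045) and without 1 library (-0.061 to 0.040), and between tissues with array weights (-0.10) and without 1 library (-0.11 to 0.13). Its adjusted p was never under 0.0924. The other 6 tested members kept their direction in every alternative run within the title-based groups, and Fosl2 was not tested. The causes were not tested. Depth is unknown, so no limit of detection can be given for Fosl2 or Atf3.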

Other observations

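The Jun genes are intronless, and their levels in the liver table were low against the thymus table. Jund and Junb are rich in G and C, whereas Jun had a lower GC content than Fosb and Batf. By the longest GENCODE protein-coding transcript, GC content was 67.1% for Jund, 62.6% for Junb, 55.5% for Jun, 56.0% for Fosb, 56.6% for Batf and 51.9% for Fos. The mean log2(FPKM + 1) of the liver libraries minus that of the thymus libraries was -5.21 for Jund, -2.90 for Junb and -2.72 for Jun, against 0.30 for Fos, 1.11 for Fosb and 1.45 for Batf. Over genes expressed in both tissues this difference had a median of 0.34, and of -0.15 in the tenth with the highest GC content (57.9 to 70.0%), to which Jund and Junb belong. The tables were normalized separately, and the values are given with no test.

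Myc and Il2 passed as higher in liver cKO, where Fos, Dusp1 and Tnfaip3 were lower. In the thymus Myc measured 9.76 ± 0.531 FPKM in cKO and 9.09 ± 1.25 FPKM in YFP+ (mean ± SD, n = 3) and did not pass (limma adjusted p = 0.515), and its difference between tissues passed (0.87, limma adjusted p = 0.00301). Klf2, which controls exit from the thymus, was higher in cKO thymus at 133 ± 5.90 against 63.1 ± 8.15 FPKM and overlapped in the liver at 10.4 ± 1.003 against 10.4 ± 1.26 FPKM.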
